A study of Rattus norvegicus with 36 samples.

Results

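The heat shock chaperone set described here holds 10 genes, which were chosen because *Hsph1* transcripts were lower in ileum of D3M than of D1M rats. They are *Hsph1*, *Hsp90aa1*, *Hsp90ab1*, *Hspa8*, *Hspa4*, *Hspd1*, *Hspe1*, *Hspb1*, *Dnajb1* and *Hsf1*. Of these 10 symbols, 9 matched a row among the 24773 genes of the count table, and all 9 passed the filters on low counts in both tissues. *Hsp90aa1* was not analysed here. The rats were untreated male UCD-T2DM rats, a polygenic strain that develops type 2 diabetes on its own, and each of the 18 rats gave 1 proximal colon and 1 ileum library of polyadenylated RNA from whole frozen tissue. ND rats (n = 6) had no diabetes and were 70 days old, D1M rats (n = 6) were 168 to 172 days old with diabetes for 22 to 23 days, and D3M rats (n = 6) were 172 to 173 days old with diabetes for 88 to 116 days. Fasting glucose averaged 94.7 ± 5.87 mg/dl in the ND, 123 ± 34.2 mg/dl in the D1M and 266 ± 67.1 mg/dl in the D3M group, and body weight averaged 414 ± 16.3, 634 ± 25.9 and 518 ± 38.5 g in that order (SD, n = 6 each). All groups carry the risk alleles of the strain, no related strain without diabetes was included, and in comparisons with ND rats the effects of age and diabetes cannot be told apart.

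Heat shock proteins hold unfolded or newly made polypeptides and help them reach their folded state. HSP70 proteins bind exposed hydrophobic stretches in a cycle that J-proteins start by ATP hydrolysis and that HSP110 proteins, acting as nucleotide exchange factors, reset; HSP90 takes over later folding of kinases and hormone receptors, and HSP60 with its lid HSP10 forms a folding chamber in mitochondria. Many of their genes are activated by heat shock factor 1, which binds repeats of the letters nGAAn called heat shock elements, and in the gut, as in other tissues, several of them are made without stress.

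The genes fall into these roles, and their positions are given in rn6. *Hsph1* (chr12:6322668-6341902, rn6) and *Hspa4* (chr10:38601624-38642397) encode HSP110 family proteins, *Hspa8* (chr8:44990014-44993179) the constitutive cytosolic HSP70, and *Dnajb1* (chr19:24747178-24750919) an HSP40 J-protein. *Hsp90ab1* (chr9:17817721-17823243) encodes the beta form of cytosolic HSP90, *Hspb1* (chr12:23839399-23841049) the small heat shock protein HSP27, and *Hsf1* (chr7:117538523-117565478) heat shock factor 1. *Hspd1* (chr9:61680530-61690956) and *Hspe1* (chr9:61692154-61694599) encode HSP60 and HSP10, lie head to head on opposite strands and were 1197 bases apart in rn6. A second row named *Hspa8* on chromosome 5 held 1 to 30 counts per library against 4839 to 15622 for the chromosome 8 gene. It was kept apart as a possible copy that shares reads with it.

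Promoter windows from RefSeq (GRCr8), covering 250 bases before to 50 bases after each gene's start, were found for 8 of the 10 genes. They were searched for pairs of heat shock element units (GAANNTTC or TTCNNGAA) and for 3 alternating units in a row, in which both pairs overlap by 1 unit. Each pair reads the same on both strands, and the 3-unit form was sought on both. A pair was present in 6 of the 8 windows and in 15.9% of all 33469 rat windows of that length, and a 3-unit form in 4 of the 8 windows and in 0.798% of all windows. *Hsph1*, *Hspa8*, *Hspd1* and *Hspe1* held the 3-unit form, *Hspb1* and *Dnajb1* held 2 pairs each, and *Hsp90ab1* and *Hspa4* had no match in these letters. The windows of 4 genes are shown with matches in capitals, for the gene that chose the set (*Hsph1*, chr12:10427118-10427417, plus strand), for the HSP70 gene with 2 separate 3-unit matches (*Hspa8*, chr8:50080264-50080563, plus strand), for the window that *Hspe1* (chr9:64084077-64084376, plus strand) shares over 211 bases with *Hspd1* (chr9:64083988-64084287, minus strand), and for *Dnajb1* (chr19:41431092-41431391, minus strand).
Hsph1: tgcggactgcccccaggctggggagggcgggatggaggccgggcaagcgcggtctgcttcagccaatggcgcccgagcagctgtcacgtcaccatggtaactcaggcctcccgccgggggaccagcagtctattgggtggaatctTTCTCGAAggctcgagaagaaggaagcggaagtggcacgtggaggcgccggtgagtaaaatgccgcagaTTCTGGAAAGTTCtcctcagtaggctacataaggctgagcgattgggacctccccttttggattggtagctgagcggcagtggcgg
Hspa8: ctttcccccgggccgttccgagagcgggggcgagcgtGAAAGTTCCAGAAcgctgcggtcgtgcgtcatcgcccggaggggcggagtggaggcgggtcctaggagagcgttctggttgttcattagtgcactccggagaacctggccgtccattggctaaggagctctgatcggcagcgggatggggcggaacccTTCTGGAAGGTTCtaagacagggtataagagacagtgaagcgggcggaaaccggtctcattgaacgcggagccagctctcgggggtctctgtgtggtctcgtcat
Hspe1: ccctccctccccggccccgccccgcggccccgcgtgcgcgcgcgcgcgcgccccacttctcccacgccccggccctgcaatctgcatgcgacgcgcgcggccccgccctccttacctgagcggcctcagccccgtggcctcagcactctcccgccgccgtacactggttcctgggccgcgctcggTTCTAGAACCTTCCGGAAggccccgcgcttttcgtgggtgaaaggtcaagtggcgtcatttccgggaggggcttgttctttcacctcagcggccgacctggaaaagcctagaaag
Dnajb1: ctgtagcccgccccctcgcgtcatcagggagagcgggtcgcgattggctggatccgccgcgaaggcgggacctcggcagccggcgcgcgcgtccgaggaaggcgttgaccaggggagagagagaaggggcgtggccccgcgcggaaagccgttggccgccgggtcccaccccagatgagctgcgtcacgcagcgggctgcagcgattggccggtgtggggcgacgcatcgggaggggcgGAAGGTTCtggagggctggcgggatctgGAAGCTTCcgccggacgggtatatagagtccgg
In the *Hspe1* window the matches join into a run of 18 bases that starts 65 bases before the *Hspe1* start, and the same run read on the other strand starts 242 bases before the *Hspd1* start. The *Hsph1* 3-unit match starts 36 bases before the gene's start, the *Hspa8* matches start 213 and 55 bases before it, and the 2 pairs of *Dnajb1* start 11 bases before it and at base 18 after it. These matches describe letters only.

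Library totals ran from 12279059 to 21510043 counts in ileum and from 10024041 to 18299050 counts in colon, and every library held at least 297 counts of each of the 9 genes. Levels are given as CPM, counts scaled to library size and by the trimmed mean of M values within a tissue, and fold changes as log2 values with their SE from edgeR's quasi-likelihood test with flow cell as a covariate. FDR is the Benjamini-Hochberg adjusted p over all genes tested, with 0.05 as threshold. Epithelial markers fitted the labelled tissue, except that 2 ND libraries also held markers of the other one. Ileal epithelial markers summed to 15000 CPM in colon of rat K4028, against at most 488 CPM in any other colon library. Colonic epithelial markers summed to 4670 CPM in ileum of rat K4040, to 1860 CPM in ileum of D3M rat P762 and to at most 689 CPM in the rest. Ileum of P762 also had the lowest D3M level of *Hsph1*, *Hsp90ab1*, *Hspd1*, *Hspe1* and *Hsf1*. Ileum libraries were also spread unevenly over the 3 flow cells, and flow cell 2 held 3 ND, 1 D1M and 0 D3M libraries. In whole tissue, fewer cells of a type and less RNA per cell cannot be told apart.

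*Hsph1*, which encodes the HSP110 protein that resets HSP70, was highest in D1M rats in ileum. Its level had a minimum of 43.2, a median of 46.3 and a maximum of 58.3 CPM in ND rats, of 42.4, 62.7 and 83.3 CPM in D1M rats and of 31.7, 42.1 and 51 CPM in D3M rats. Of the 6 D1M rats 4 were above every D3M rat and the rest lay within the D3M range, and ND rats overlapped with both groups. *Hsph1* stood at a log2 fold change of -0.59 (SE 0.14) in D3M relative to D1M rats, -0.34 (SE 0.17) in D3M relative to ND and 0.25 (SE 0.16) in D1M relative to ND rats. These values chose the set, so they are a description and carry no test. With each library left out in turn, the D3M to D1M value ran from -0.68 to -0.49. Within flow cells, the log2 ratio of means was -0.73 on flow cell 1 (4 D3M and 3 D1M libraries) and -0.50 on flow cell 3 (2 and 2). In D3M relative to ND rats it was -0.02 on flow cell 1, with a single ND library, and -0.31 on flow cell 3.

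**Figure D1:**
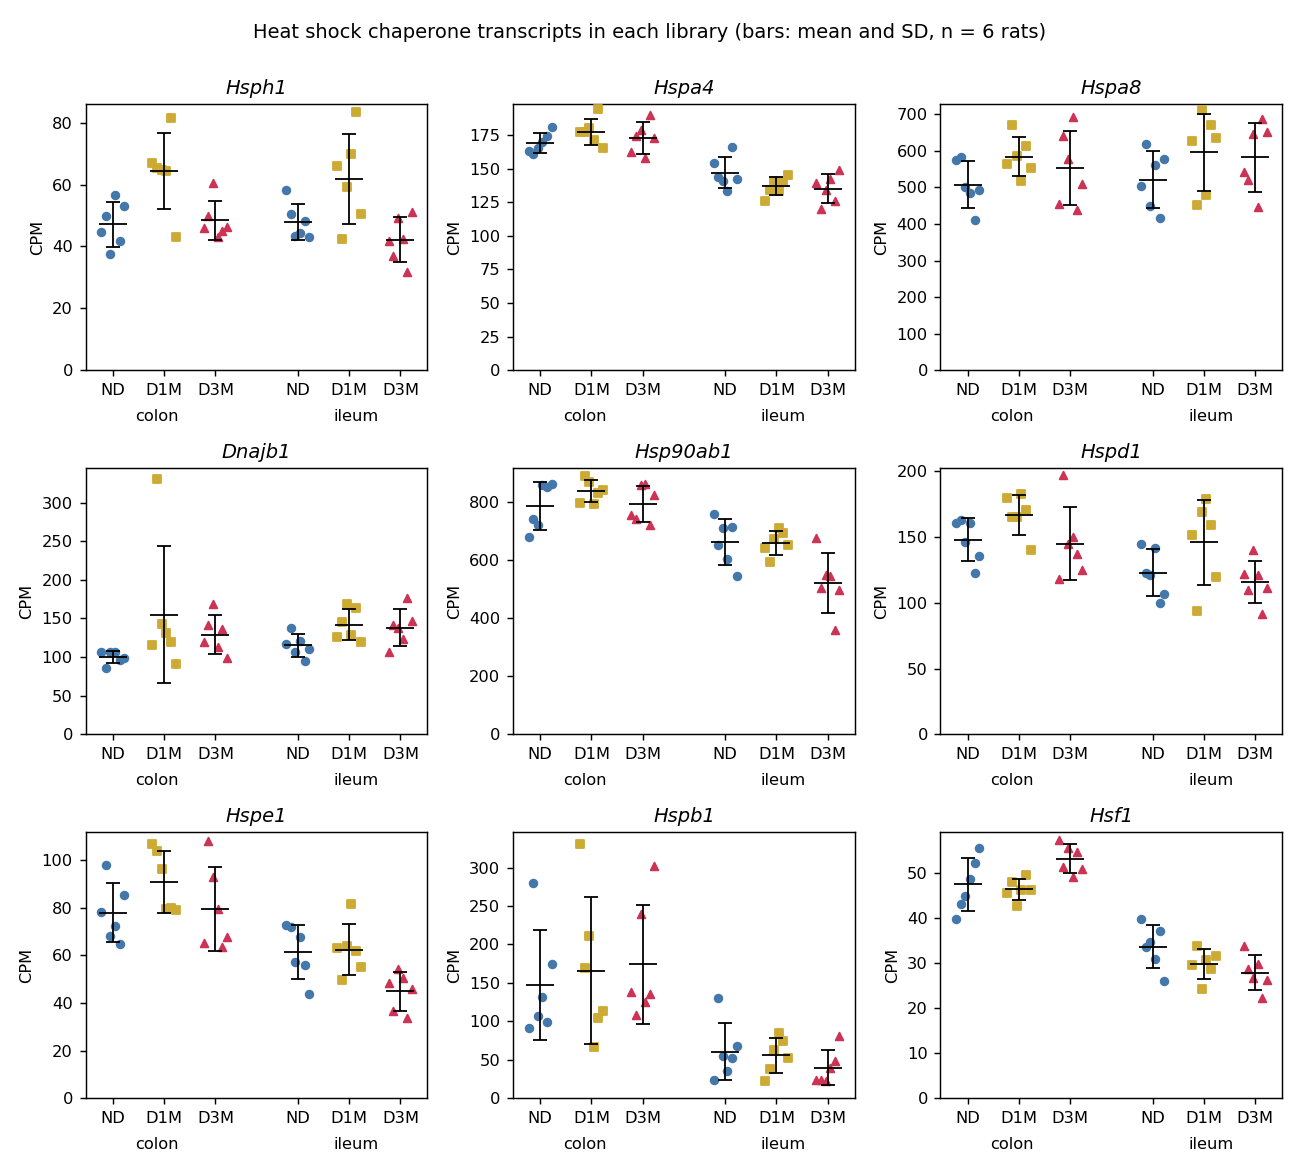
CPM of the 9 measured heat shock chaperone genes in each library, by stage within colon and ileum, each axis starting at 0. Points are single rats and black bars are the mean and SD of 6 rats, with *Hsph1* in ileum at a median of 46.3 CPM in ND, 62.7 CPM in D1M and 42.1 CPM in D3M rats.

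The mitochondrial chaperonin genes and *Hsp90ab1* had their lowest medians in D3M ileum. *Hspe1* reached a minimum of 43.8, a median of 62.6 and a maximum of 72.9 CPM in ND, of 49.7, 62.5 and 81.6 CPM in D1M and of 33.9, 47.1 and 54.3 CPM in D3M rats, so that all but 1 of the ND rats lay above all D3M rats. *Hspd1* reached 100, 122 and 145 CPM in ND, 93.4, 156 and 179 CPM in D1M and 91.3, 116 and 140 CPM in D3M rats, and the 3 groups overlapped. *Hsp90ab1* reached 544, 680 and 757 CPM in ND, 594, 662 and 709 CPM in D1M and 360, 524 and 675 CPM in D3M rats. For *Hsp90ab1*, 5 of the 6 D3M rats were below every D1M rat and 1 overlapped with them.

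In D3M relative to ND ileum, none of these differences passed the threshold. The D3M libraries of this contrast are those that the choice of the set used. Low D3M values of genes that vary with *Hsph1* are therefore not independent of that choice. The log2 fold change was -0.56 (SE 0.18, FDR = 0.0509) for *Hspe1*, -0.40 (SE 0.14, FDR = 0.0727) for *Hsp90ab1* and -0.35 (SE 0.14, FDR = 0.119) for *Hspd1*. edgeR called 0 of the 9 genes at FDR < 0.05, against 12.5% of the 13026 genes tested. An unadjusted p below 0.05 was found for 3 of the 9 and for 3867 of the 13026, a similar share. DESeq2 called 2 of the 9 and voom with quality weights 3. Of the 9 values 7 were negative, with a median of -0.33 against -0.08 over all genes tested. The count depended on a single library. Without ND rat K4048, the only ND ileum library on flow cell 1, 3 genes passed, with *Hspe1* at -0.83, *Hspd1* at -0.58 and *Hsp90ab1* at -0.58, and without D3M rat K3959 or K3977 1 gene passed. Within flow cell 3 (2 libraries per group) the log2 ratio of means in D3M relative to ND ileum was -0.82 for *Hspe1*, -0.51 for *Hspd1* and -0.67 for *Hsp90ab1*, and within flow cell 1 (4 D3M libraries and K4048) it was 0.12, 0.20 and 0.06. Flow cell 2 held no D3M library. The difference therefore did not hold within both flow cells that had libraries of each group.

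*Hspa8*, *Hspa4* and *Dnajb1*, of the cytosolic HSP70 machinery, did not pass in D3M or D1M relative to ND ileum. *Hspa8* had a minimum of 417, a median of 532 and a maximum of 618 CPM in ND, of 452, 631 and 712 CPM in D1M and of 446, 594 and 687 CPM in D3M rats, and *Hspa4* stayed between 120 and 166 CPM in all 18 libraries. *Dnajb1*, the J-protein gene, ran from 94.3 to 138 CPM in ND, from 120 to 169 CPM in D1M and from 107 to 176 CPM in D3M rats. *Dnajb1* had the most positive values of the 9 genes against ND, with log2 fold changes of 0.28 (SE 0.15, FDR = 0.202) in D3M and 0.32 (SE 0.14, FDR = 0.562) in D1M rats. These contrasts share the ND rats, and their D3M and D1M libraries are those that the choice of the set used. *Hsf1* ran from 26.1 to 39.8 CPM in ND, from 24.2 to 33.9 CPM in D1M and from 22.2 to 33.9 CPM in D3M rats (D3M relative to ND, log2 fold change -0.18, SE 0.13, FDR = 0.381).

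*Hspb1* was the most variable gene of the set in ileum. Its level ran from 23.6 to 130 CPM in ND, from 22.5 to 84.4 CPM in D1M and from 22.7 to 80.3 CPM in D3M rats, and the log2 fold change in D3M relative to ND rats was -0.33 with an SE of 0.54 (FDR = 0.715). In D1M relative to ND ileum, edgeR called 0 of the 9 genes, against 0.0154% of genes tested, and DESeq2 and voom each called 0. *Dnajb1* was 1 of 9 with an unadjusted p below 0.05, against 1087 of the 13026 genes tested. All 9 values were negative in D3M relative to D1M ileum, with a median of -0.36 against -0.04 over all genes, and *Hsph1* alone passed FDR < 0.05, as did 2.22% of genes tested. That is the contrast the set was chosen on, and nothing is read from it. *Hspe1* stood at -0.50 (SE 0.15), *Hspd1* at -0.40 (SE 0.12) and *Hsp90ab1* at -0.36 (SE 0.12) in it, while *Hspa4* stood at -0.01 (SE 0.07).

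In colon, *Hsph1* again had its highest median in D1M rats. It reached a minimum of 37.5, a median of 47.2 and a maximum of 56.7 CPM in ND, of 43.1, 65.1 and 81.5 CPM in D1M and of 43, 46.1 and 60.6 CPM in D3M rats, and 5 of the 6 D1M rats lay above all rats of the other groups. The log2 fold change was 0.44 (SE 0.13) in D1M relative to ND rats, with an unadjusted p of 0.0043 and FDR = 0.952, and -0.35 (SE 0.14) in D3M relative to D1M rats, with an unadjusted p of 0.0277 and FDR = 0.945 in edgeR. Neither passed. The ratio of means in D1M relative to ND colon was 0.63, 0.18 and 0.49 on the log2 scale within flow cells 1, 2 and 3, with 2 libraries per group in each. The colon samples come from the same rats as the ileum samples and were not used by the choice of genes.

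A positive log2 fold change in D1M relative to ND colon was found for 8 of the 9 genes, with a median of 0.18 against -0.001 over all genes, but edgeR called 0 of 9 and 0% of the 12906 genes tested. The direction was not particular to the set. Of 78 other chaperone genes, from lists described below, 64 were also positive (median 0.06), as were 13 of 13 immediate early genes (median 0.495). An unadjusted p below 0.05 was found for 4 of the 9, *Hsph1*, *Hspa8* (0.21, SE 0.09), *Hspd1* (0.18, SE 0.08) and *Dnajb1* (0.59, SE 0.24), each at FDR = 0.952. Over all genes tested, 602 of 12906 had such a p. The *Dnajb1* value rested on the library of D1M rat K3986, and it was 0.25 without it. In D3M relative to ND colon edgeR called 0 of 9, against 0.0155% of genes tested. An unadjusted p below 0.05 was found there for 0 of 9 and for 1292 of the 12906 genes tested. In D3M relative to D1M colon edgeR called 0 of 9, against 0% of genes tested, and 2 of 9 had an unadjusted p below 0.05, *Hsph1* and *Hsf1* (0.18, SE 0.08, FDR = 0.945). Such a p was found for 682 of the 12906 genes tested in this comparison. DESeq2 and voom also called 0 of the 9 genes in each of the 3 colon comparisons.

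*Hsf1*, which encodes a factor that activates heat shock genes under heat stress, reached a minimum of 49.1, a median of 53.1 and a maximum of 57.3 CPM in D3M colon, against 42.6, 46.2 and 49.6 CPM in D1M colon. The groups overlapped by 1 rat on each side, and ND colon spanned 39.9 to 55.7 CPM and covered most of both ranges. In no comparison between stages did the CPM of the groups fail to overlap for any of the 9 genes. Over all genes tested, 6.4% did not overlap in ileum of D3M relative to ND rats, 0.606% of D1M relative to ND rats and 1.84% of D3M relative to D1M rats, and in colon 0.953%, 0.132% and 0.279% in the same order.

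**Figure D2:**
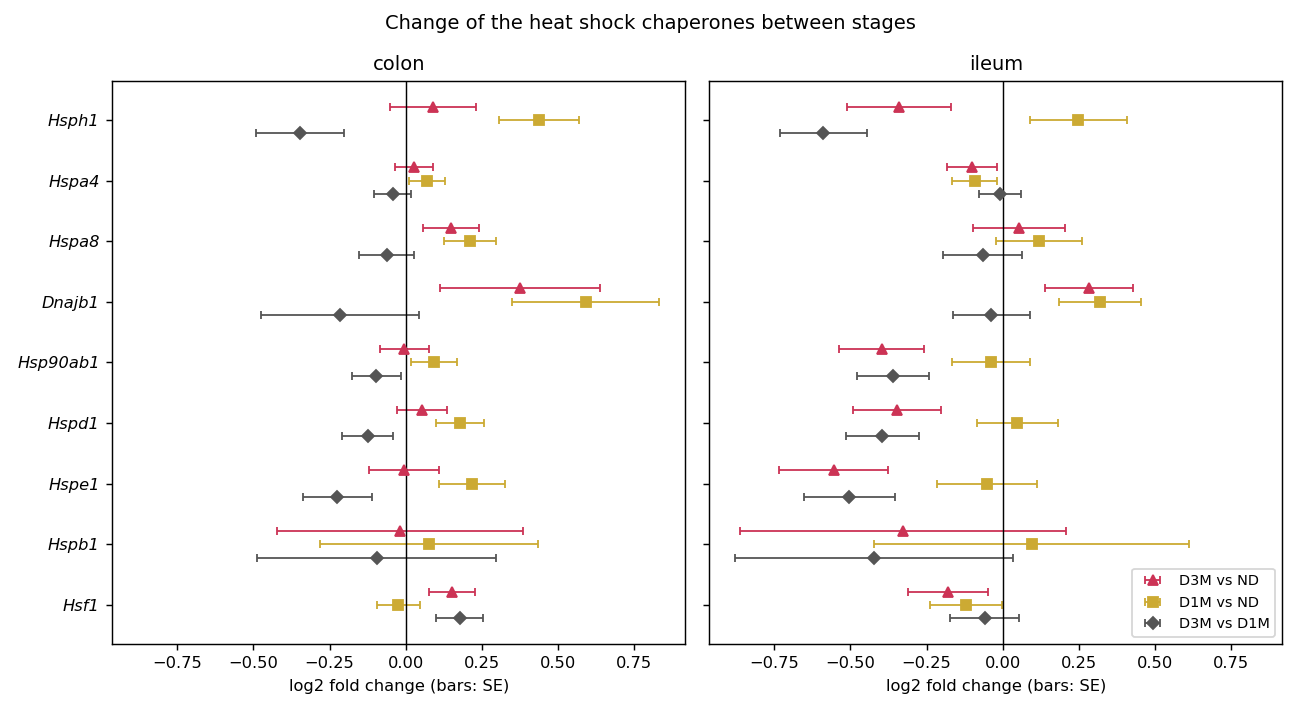
Log2 fold changes of the 9 heat shock chaperone genes between stages in colon and ileum, with bars for the SE. In ileum the D3M vs D1M values were all negative, from -0.59 for *Hsph1* to -0.01 for *Hspa4*, and in colon they ran from -0.35 for *Hsph1* to 0.18 for *Hsf1*.

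To ask whether the change with diabetes differed between the tissues, the difference of the ileal and colonic changes was tested over all 36 libraries. The test treated the colon and ileum libraries of a rat as separate, and no fit with the rat as a block is given for it. Its ileal D3M and D1M libraries are those that the choice of the set used. Relative to ND, the D3M change of *Hspe1* was -0.50 on the log2 scale in ileum minus colon (SE 0.21, FDR = 0.218), that of *Hspd1* -0.35 (SE 0.17, FDR = 0.27) and that of *Hsp90ab1* -0.35 (SE 0.15, FDR = 0.238). For the D3M change edgeR called 0 of 9 genes and 1.56% of 13697 genes, and these 3 genes had an unadjusted p below 0.05. The number of all genes with such a p is not given here. The test was added after these data were seen, and for the D1M change 0 of 9 and 0% of genes passed.

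The clearest differences within the set were between the tissues, where 73.2% of all 13697 genes tested also passed FDR < 0.05. For these values all 36 libraries were scaled together. *Hspb1*, whose small heat shock protein binds unfolded proteins and actin, had a minimum of 63.2, a median of 126 and a maximum of 313 CPM in colon, against 23.4, 54.2 and 137 CPM in ileum. Colon exceeded ileum in 17 of 18 rats, by a log2 fold change of 1.34 (SE 0.25, FDR = 2.06e-05). *Hsf1* had 37.5, 45.8 and 54.8 CPM in colon, against 24.6, 32 and 41.6 CPM in ileum, with colon higher in 17 of 18 rats (0.48, SE 0.06, FDR = 1.87e-09).

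Between colon and ileum 7 of the 9 genes differed, 6 higher and 1 lower in colon, where 73.2% of genes tested did (38.7% higher and 34.5% lower). *Hspe1* was higher in colon in 15 of 18 rats (log2 fold change 0.38, SE 0.09, FDR = 0.000273), *Hsp90ab1* in 16 (0.21, SE 0.06, FDR = 0.00192) and *Hspa4* in 13 (0.13, SE 0.04, FDR = 0.00238). *Hspd1* was higher by 0.16 (SE 0.06, FDR = 0.0266), in 10 of 18 rats. With the rat as a block the *Hspd1* value was 0.13 at FDR = 0.0636 and no longer passed. *Hspa8* was the only one of the 9 genes called lower in colon (-0.19, SE 0.07, FDR = 0.00851), where it had a minimum of 391, a median of 530 and a maximum of 647 CPM, against 434, 600 and 763 CPM in ileum.

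*Hsph1* and *Dnajb1* were not called between the tissues. *Hsph1* had a median of 46.4 CPM in colon, against 51.6 CPM in ileum (-0.07, SE 0.09, FDR = 0.474). *Dnajb1* was lower in colon in 15 of the 18 rats, since colon exceeded ileum in 3, with a log2 fold change of -0.23 (SE 0.12, FDR = 0.074). It passed with the rat as a block (-0.26, FDR = 0.0236) and without the colon library of D1M rat K3986 (-0.35, FDR = 0.000188).

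The colon to ileum ratio had its highest mean in D3M rats for *Hspe1*, *Hsp90ab1* and *Hsf1*, among others, and these 3 were chosen after their values were seen. The log2 ratio of colon over ileum for *Hspe1* averaged 0.19 ± 0.35 for ND rats, 0.38 ± 0.38 for D1M rats and 0.62 ± 0.39 for D3M rats, and for *Hsp90ab1* it was 0.09 ± 0.31, 0.18 ± 0.15 and 0.43 ± 0.24 in the same order (SD, n = 6 each). For *Hsf1* it was 0.34 ± 0.37 for ND rats, 0.49 ± 0.11 for D1M rats and 0.75 ± 0.20 for D3M rats. The spreads overlapped between neighbouring stages in each of these genes. The test of the tissue difference given above did not pair the libraries of a rat, and its ileal D3M libraries were also used by the choice of the set. In it, the D3M change relative to ND did not pass for *Hspe1* (FDR = 0.218), *Hsp90ab1* (FDR = 0.238) or *Hsf1* (FDR = 0.316).

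**Figure D3:**
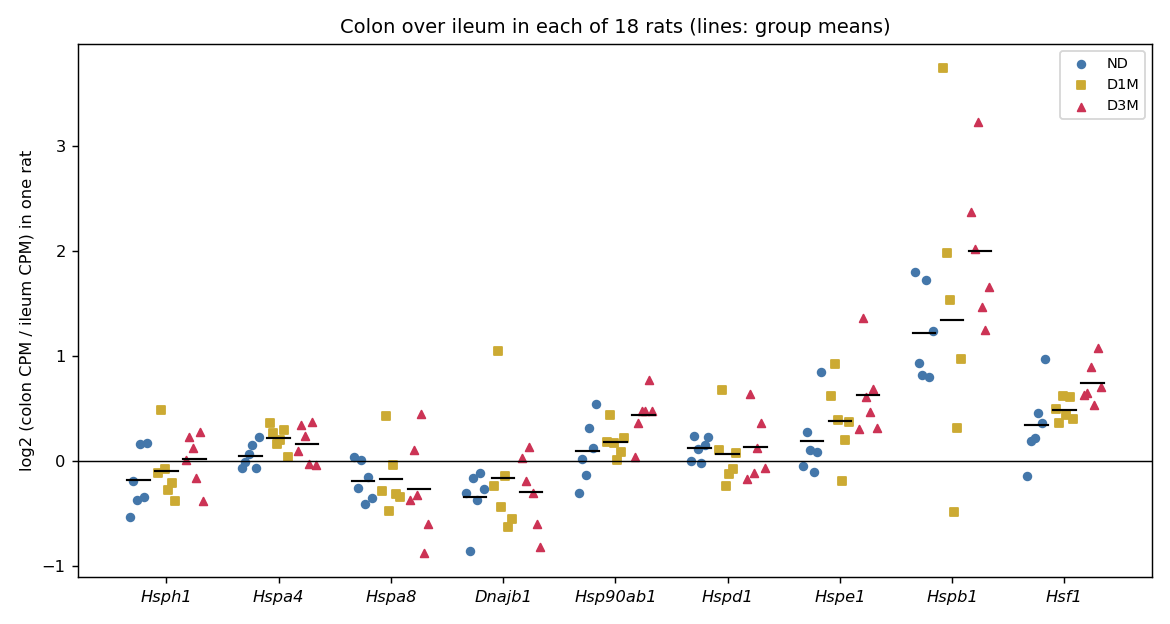
Log2 ratio of colon over ileum CPM within each of 18 rats for the 9 heat shock chaperone genes, by stage, with lines at the group means. *Hspb1* lay above 0 in 17 rats and *Hsf1* in 17, while *Dnajb1* did so in 3.

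Relations among the genes were measured over the 18 libraries of a tissue after the group means were taken out, with two-sided permutation tests within groups. *Hspd1* and *Hspe1*, the head-to-head pair with the shared promoter window shown above, varied together in ileum (Pearson r = 0.81, p = 5e-05, adjusted p = 0.0036 over 72 pairs; Spearman rho = 0.84, p = 5e-05). The r was 0.77 without the 2 libraries farthest from the median and 0.90 with flow cell means also taken out. In colon the same pair had r = 0.66 (p = 0.0081, adjusted p = 0.0729; rho = 0.63, p = 0.0107), which fell to 0.46 without the 2 farthest libraries. No other of the 72 pairs passed by r. By rho, *Hspa8* and *Hsf1* in ileum (rho = -0.74, p = 0.00127; r = -0.67, p = 0.00413) and *Hspa8* and *Hspe1* in colon (rho = 0.81, p = 0.00124; r = 0.71, p = 0.00544) also passed, at adjusted p = 0.0305 for rho and 0.056 for r in both. *Hsph1* correlated with *Hspd1* at r = 0.74 (p = 0.00241) and with *Hspe1* at 0.69 (p = 0.00224) in ileum, both at an adjusted p of 0.0522.

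Some genes of the set followed marker scores from library to library. *Hspb1* followed a score of 14 measured smooth muscle genes with r = 0.91 in ileum (p = 1e-05, the smallest these permutations can give, adjusted p = 0.00054 over 108 relations; rho = 0.91, p = 1e-05) and r = 0.92 in colon (p = 2e-05, adjusted p = 0.00072; rho = 0.92, p = 2e-05). Without the 2 farthest libraries r was 0.86 in each tissue, and with flow cell means taken out it was 0.93 in ileum and 0.91 in colon. The summed smooth muscle level ran from 8350 to 27400 CPM in colon, against 2480 to 12400 CPM in ileum, and with the score as a covariate the colon to ileum value of *Hspb1* was 0.58 (FDR = 6.04e-05) in place of 1.34.

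*Hsp90ab1* followed a score of 14 cell cycle genes in ileum, with r = 0.94 (p = 1e-05, adjusted p = 0.00054; rho = 0.93, p = 1e-05), 0.88 without the 2 farthest libraries and 0.93 with flow cell means taken out. In colon r was -0.14 (p = 0.631; rho = -0.17, p = 0.536). The summed ileal cell cycle level ran from 385 to 748 CPM in ND, from 476 to 611 CPM in D1M and from 276 to 522 CPM in D3M rats, and all 14 cell cycle genes tested had a negative log2 fold change in D3M relative to ND ileum, of which 1 (*Ccnb1*) passed. In D3M relative to ND colon all 13 cell cycle genes tested were also negative (median -0.46), and 0 passed. There *Hsp90ab1* stood at -0.004, *Hspd1* at 0.05 and *Hspe1* at -0.006. The part of cell cycle genes in the lower *Hsp90ab1*, *Hspd1* and *Hspe1* levels of D3M ileum was not tested. *Hsf1* related to the ileal cell cycle score at r = 0.72 (p = 0.00284, adjusted p = 0.0307; rho = 0.63, p = 0.0146), *Hspe1* at 0.67 (p = 0.00598, adjusted p = 0.0384; rho = 0.55, p = 0.0335) and *Hspd1* at 0.54 (p = 0.00605, adjusted p = 0.0384; rho = 0.51, p = 0.0233). By rho these 3 relations did not pass (adjusted p = 0.093, 0.148 and 0.126), and without the 2 farthest libraries r was 0.44, 0.39 and 0.42.

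**Figure D4:**
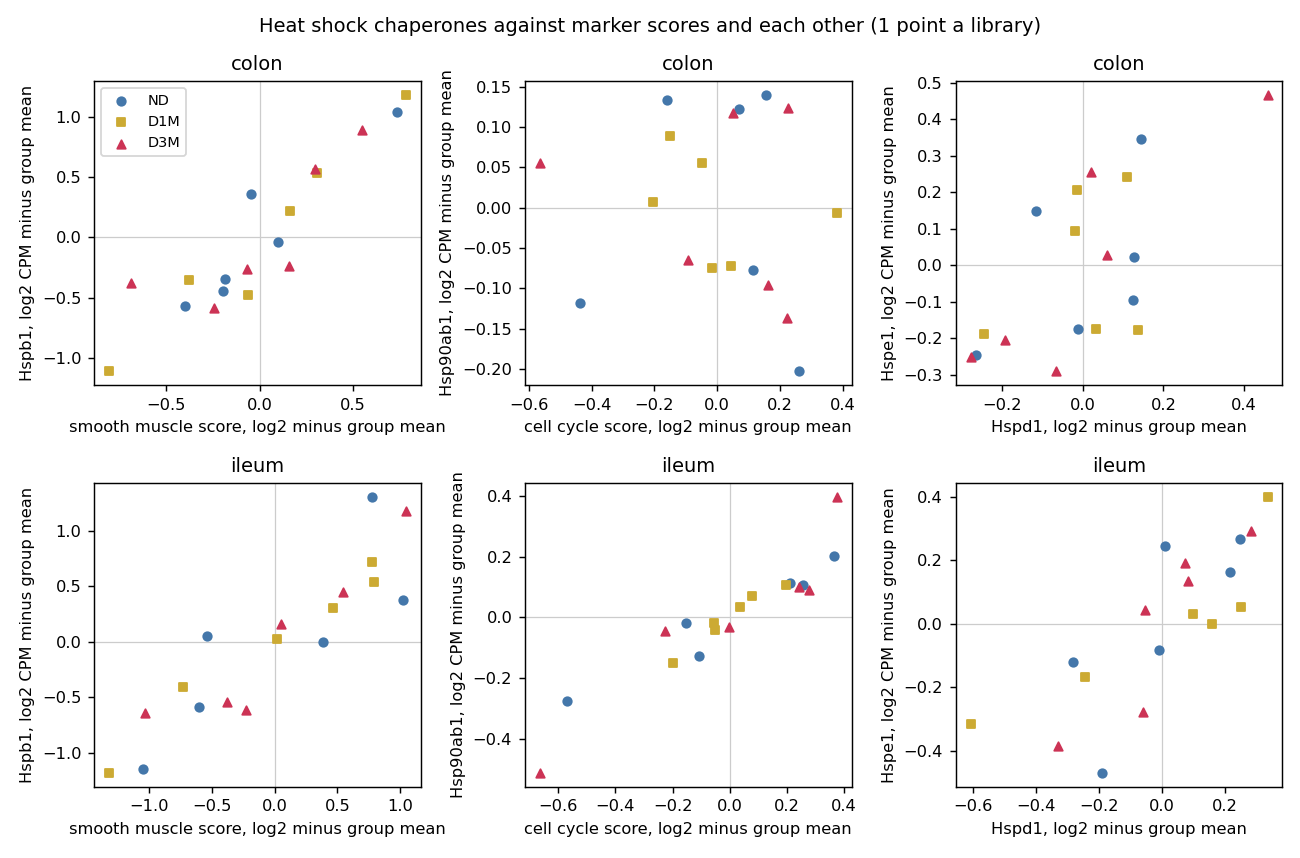
*Hspb1* against the smooth muscle score, *Hsp90ab1* against the cell cycle score and *Hspe1* against *Hspd1*, as log2 values minus the group mean, 1 point per library, in colon and ileum. *Hspb1* followed the smooth muscle score in colon (r = 0.92) and ileum (r = 0.91), and *Hsp90ab1* the cell cycle score in ileum (r = 0.94) but not in colon (r = -0.14).

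In ileum *Hsph1* followed the score of the 12 HSP90 co-chaperone genes (r = 0.78, p = 0.00079, adjusted p = 0.0201; rho = 0.68, p = 0.00439), with r = 0.67 without the 2 farthest libraries and 0.75 with flow cell means taken out. In colon r was 0.62 (p = 0.0151, adjusted p = 0.085; rho = 0.49, p = 0.0522), and 0.23 without the 2 farthest libraries. Over the 18 ileum libraries, the 8 of 8375 genes most like *Hsph1* by Pearson r were *Chtf8* (0.85), *Hyou1* (0.84), *Cct6a* (0.81), *Stip1* (0.76), *Ddx1* (0.76), *Cmah* (0.76), *Srsf10* (0.75) and *Pbk* (0.75). *Stip1*, which encodes the HOP protein that links HSP70 to HSP90, also ranked 1 of 8339 genes in colon (r = 0.75), *Hyou1*, an HSP110 relative of the endoplasmic reticulum, ranked 73 (0.56) and *Cct6a*, a subunit of the TRiC chaperonin, ranked 109 (0.53). In colon *Chtf8* had r = -0.11, *Cmah* 0.009, *Pbk* 0.198, *Ddx1* 0.205 and *Srsf10* 0.408. Among the set, *Hspd1* ranked 10 and *Hspe1* 32 in ileum, but 437 and 451 in colon. The other set members ranked from 200 (*Hsp90ab1*) to 4317 (*Dnajb1*) in ileum.

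Whether a gene varied together in the ileum and colon of the same rat was measured over the 18 rats. Of these, 0 of 9 correlations passed an adjusted p of 0.05, and 0 of 9 had an unadjusted p below 0.05. The r was 0.38 for *Hsph1* (p = 0.185; rho = 0.29, p = 0.256) and 0.36 for *Hspd1* (p = 0.125; rho = 0.46, p = 0.0606), each at an adjusted p of 0.795, and lay between -0.25 and 0.18 for the others.

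The wider chaperone network was read from lists of 83 other genes, of which 81 had a row and 79 were tested in ileum. In D3M relative to ND ileum 4 of the 79 rose and 9 fell, where 8.31% of all genes tested rose and 4.22% fell. Their median log2 fold change was -0.17, against -0.08 over all genes. The D3M libraries of this contrast are those that the choice of the set used. In the same ileum comparison 6 of 10 ileal epithelial genes also rose (median 0.82). All 14 cell cycle genes were negative (median -0.54), as were the 13 tested in D3M relative to ND colon (median -0.46). The part of both lists in the chaperone values was not tested. Of 12 HSP90 co-chaperone genes 3 fell, *Cacybp* (-0.53, SE 0.14, FDR = 0.0196), *Ahsa1* (-0.39, SE 0.11, FDR = 0.0304), an activator of the HSP90 ATPase, and *Stip1* (-0.45, SE 0.14, FDR = 0.044). Of 14 TRiC and prefoldin genes, which fold actin and tubulin, 5 fell, among them *Tcp1* (-0.52, SE 0.14, FDR = 0.0221), *Cct6a* (-0.36, SE 0.10, FDR = 0.0235) and *Cct2* (-0.38, SE 0.11, FDR = 0.0364). *Trap1*, the mitochondrial HSP90, also fell (-0.29, SE 0.09, FDR = 0.0493). Without the ND library K4040 with colonic RNA 2 of the 79 genes were called lower, and 0 were without flow cell 2, without D1M rat K3986 or without D3M rat P762, while 19 were without ND rat K4048.

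*Stip1* had a minimum of 40.6, a median of 62.9 and a maximum of 65.6 CPM in D3M ileum, against 63.5, 76.7 and 90.2 CPM in ND ileum, with a small overlap. *Tcp1* had 24.7, 31.5 and 40.9 CPM in D3M ileum, against 37.2, 40.6 and 49.1 CPM in ND ileum, and the groups overlapped. The 4 genes that rose were *Hspa12a*, a distant HSP70 relative (1.25, SE 0.22, FDR = 0.00366), the J-protein genes *Dnajb6* (0.55, SE 0.12, FDR = 0.00744) and *Dnajb2* (0.37, SE 0.11, FDR = 0.0388), and *Hsf4*, another heat shock factor (1.04, SE 0.32, FDR = 0.0427). *Hspa12a* had 17.9, 31.1 and 41.8 CPM in D3M ileum, against 11.3, 13.2 and 15.3 CPM in ND ileum, and *Dnajb6* had 49, 63.1 and 70.7 CPM in D3M ileum, against 36, 41.7 and 46.5 CPM in ND ileum. Neither gene overlapped between the groups, and 6.4% of all genes tested did not.

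In the same comparison, of 17 chaperone genes of the endoplasmic reticulum 0 passed, with a median log2 fold change of -0.004 and *Hspa5*, the HSP70 of that compartment, at 0.08 (SE 0.13, FDR = 0.735). The 5 other small heat shock protein genes had 0 calls and a median of -0.40, with SEs of 0.56 to 0.72, and the 7 HSP70 co-chaperone genes had 0 calls, with *Bag3*, an HSF1 target, at 0.24 (SE 0.15, FDR = 0.3). *Hspa9*, the mitochondrial HSP70, stood at -0.56 (SE 0.23, FDR = 0.117), and the cold-inducible RNA-binding protein genes *Cirbp* and *Rbm3* at -0.07 (SE 0.14, FDR = 0.77) and -0.27 (SE 0.17, FDR = 0.315). *Hspa4l*, a further HSP110 gene at 0.391 to 0.872 CPM in D3M ileum and 0.252 to 1.30 CPM in ND ileum, stood at -0.22 (SE 0.44, FDR = 0.767). *Hspa1a*, the classical inducible HSP70 gene, was listed at 0 in all 36 libraries. A count of 0 allows up to 3 counts, or 0.299 CPM in the shallowest library for counting error only, and reads of this gene are uncertain because of its near-identical neighbour *Hspa1b*. *Hspa1b* itself was not among the genes tested. In the other comparisons between stages, in ileum and in colon, edgeR called 0 of these genes, while DESeq2 called 3 higher and 4 lower in D3M relative to D1M ileum and 1 higher in D3M relative to ND colon.

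**Figure D5:**
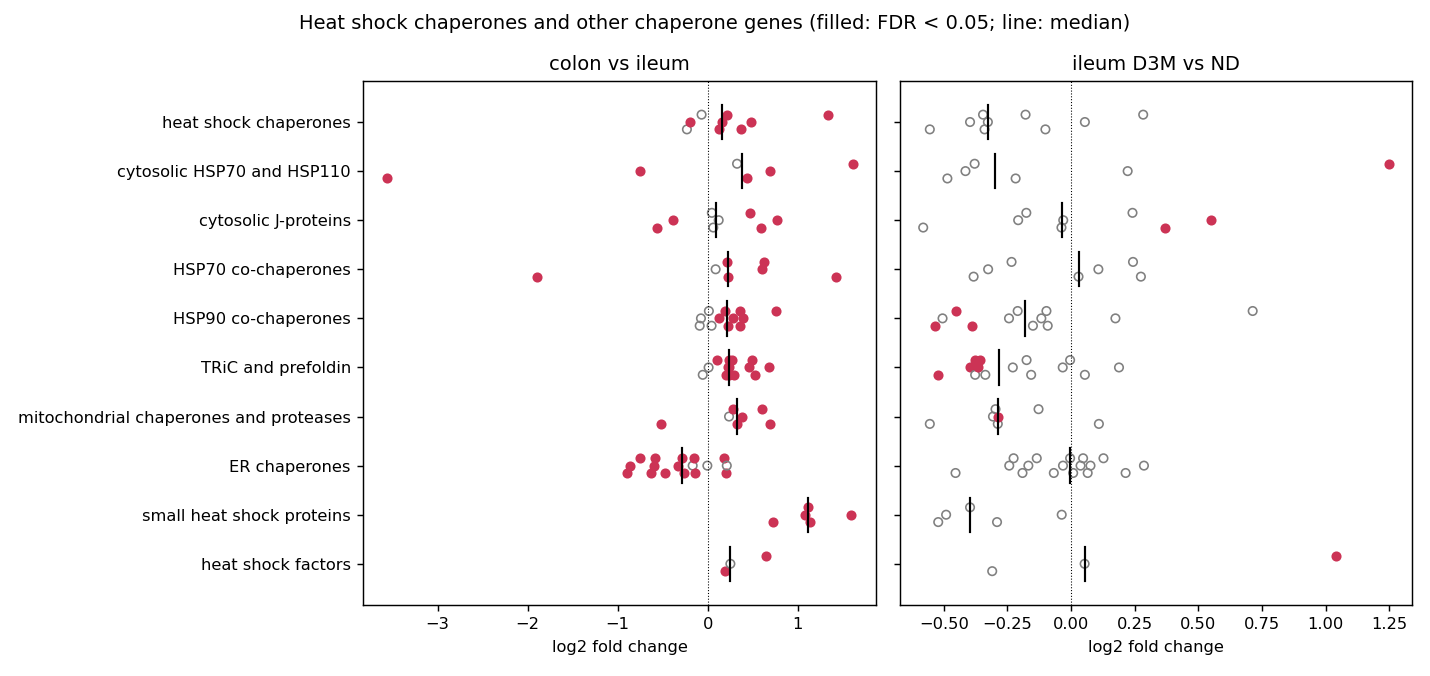
Log2 fold changes of the heat shock chaperones and of 9 lists of other chaperone genes in colon vs ileum and in ileum D3M vs ND, with filled points at FDR < 0.05 and lines at list medians. In ileum D3M vs ND the HSP90 co-chaperone and TRiC lists lay mostly below 0, with 3 and 5 genes called lower, and in colon vs ileum the list of the endoplasmic reticulum lay below 0 (median -0.28) and the small heat shock proteins above it (median 1.11).

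In colon relative to ileum 45 of the 79 genes were higher and 18 lower, where 38.7% of all genes tested were higher and 34.5% lower. All 5 other small heat shock protein genes were higher in colon, among them *Cryab* (1.59, SE 0.32, FDR = 4.46e-05) and *Hspb8* (1.13, SE 0.27, FDR = 0.000317), as were 12 of 14 TRiC and prefoldin genes and 8 of 12 HSP90 co-chaperone genes. Of 14 smooth muscle genes 10 were also higher in colon. The part of muscle in the small heat shock protein values was not tested. A value with the smooth muscle score as covariate is given above for *Hspb1* only. The TRiC and prefoldin list was led by the prefoldin genes *Pfdn5* (0.68, FDR = 2.05e-14), *Pfdn2* (0.52, FDR = 8.58e-11) and *Pfdn6* (0.49, FDR = 1.9e-10), and the HSP90 co-chaperones by *Ppid* (0.36, FDR = 6.07e-07), *Ppp5c* (0.23, FDR = 7.58e-06) and *Stip1* (0.36, FDR = 1.65e-05). Chaperone genes of the endoplasmic reticulum were lower in colon in 12 of 17 cases and higher in 2. *Hspa5* had a log2 fold change of -0.86 (SE 0.09, FDR = 9.32e-11) and *Calr*, which encodes the calcium-binding lectin calreticulin, of -0.76 (SE 0.07, FDR = 2.15e-11), and *Hsp90b1*, the HSP90 of this compartment, of -0.64 (SE 0.06, FDR = 1.05e-10). *Hspa12a* stood at -3.57 (SE 0.24, FDR = 5.52e-15) in colon relative to ileum, *Hspa4l* at 1.61 (SE 0.22, FDR = 6.78e-08) and *Bag3* at 0.60 (SE 0.08, FDR = 1.32e-08). The other HSP70 relatives *Hspa14* (0.69, FDR = 5.51e-11) and *Hspa13* (-0.75, FDR = 5.52e-09) and the J-protein genes *Dnaja1* (-0.56, FDR = 6.63e-08), *Dnajb4* (0.60, FDR = 1.92e-07) and *Dnajb2* (-0.38, FDR = 4.21e-07) went in both directions. Of 7 HSP70 co-chaperone genes 5 were higher in colon, among them *Hspbp1* (0.62, FDR = 3.41e-13), and 1 was lower, *Bag4* (-1.89, FDR = 4.36e-09). Among mitochondrial genes, *Grpel1* (0.60, FDR = 4.24e-14) and the protease gene *Clpp* (0.69, FDR = 7.73e-14) were higher and *Clpx*, the ATPase partner of that protease, was lower in colon (-0.52, FDR = 3.56e-11). *Hsf2*, another heat shock factor, was higher in colon (0.65, FDR = 6.66e-06).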

How the data were processed

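Polyadenylated RNA of ileum and colon from 18 male UCD-T2DM rats was sequenced in 36 libraries. The authors aligned the reads to rn6 using STAR, and SeqMonk gave the counts per gene. No STAR version or strand setting of the counting is given in the sources used here. Overlapping genes on opposite strands may therefore share reads. The authors deposited raw counts for 24773 genes, whole numbers with no normalization, and these counts were used for every result. A second deposited table, on a log2 scale, was not used.

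Groups, rats and flow cells were taken from the labels. Counts were analysed in edgeR 4.0.16 (R 4.3.3, limma 3.58.1, data.table package, version 1.17.8). Genes were kept by filterByExpr (13026 in ileum, 12906 in colon, 13697 in both together), libraries were scaled by TMM, and a robust quasi-likelihood model with a mean for each stage and a flow cell term of 3 levels was fitted to the 18 libraries of a tissue. Rows of *Hspa8* on another chromosome were kept apart. The SE was derived from each log2 fold change and its F statistic (absolute log2 value over the root of F). Colon was compared with ileum over 36 libraries with stage and flow cell as covariates. The rat pairs a colon and an ileum library of the same animal, and a fit with the rat as replicate block was an alternative. Scores are means of log2 CPM (prior count 2) over a list, and correlations used values minus group means with 100000 permutations within groups.

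The genes and lists were chosen with earlier results of these data known. Named were all set members and, from each chaperone list, at most 3 genes with the smallest p among those at FDR < 0.05 per colon comparison and in D3M or D1M relative to ND ileum. Also named were *Hspa1a*, *Hspa5*, *Hspa9*, *Bag3*, *Hspa4l*, *Cirbp* and *Rbm3* whatever their values, and the 8 genes most like *Hsph1* (mean log2 CPM of at least 3). *Hspa1b* was planned as well, but it was not among the genes tested and no value of it is given. Of the lists for context, 5 of 14 immediate early genes and 6 of 10 ileal epithelial genes were higher in D3M relative to ND ileum, and of 14 smooth muscle, 15 B cell and 5 colonic epithelial genes tested 0 were called. In colon relative to ileum, 8 of 8 colonic epithelial genes were higher and 10 of 10 ileal ones lower. Rats are separate animals, and within a tissue p-values measure the spread between them. The main fit of colon against ileum has no term for the rat, so its p-values treat the libraries of a rat as separate.

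Alternatives were RLE and upper quartile scaling, genes kept without a filter or by 1 CPM in at least 6 libraries, voom with quality weights, DESeq2 1.42.0, edgeR's newer quasi-likelihood method, no robust estimation, no term for flow cell, leaving out flow cell 2, without the 2 libraries with foreign RNA, with a B cell or smooth muscle score as covariate, with only the 2 groups compared, and with each library left out. The fit was tested on simulated data. Promoter windows were taken from RefSeq (GRCr8), none was found for *Hsf1* or *Hsp90aa1*, and plots were made in matplotlib 3.10.9 (Python 3.11.15).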

Additional observations from a re-analysis of the deposited data

Results flagged for a closer look

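In colon of D1M rats, *Dnajb1* stood at 331 CPM in rat K3986, far from the other rats of its group, of which the nearest had 143 CPM. The gap divided by the range was 0.781, above Dixon's critical value for 6 samples. This was the only flag among 54 groups of 6 libraries, and chance flags about 1 in 20 groups. The same library held 3930 CPM of immediate early genes, against at most 1400 CPM in any other colon library. *Hspa8* (671 CPM) and *Hsp90ab1* (889 CPM) were also highest in it among the 6 D1M colon libraries, by less, and *Hsph1* (65.5 CPM) was within their range. The *Dnajb1* log2 fold change in D3M relative to D1M colon was -0.22 (SE 0.26) with this library and 0.17 without it, at FDR = 0.983 and 0.991 in edgeR. The part of immediate early genes in this value was not tested. *Dnajb1* and the immediate early score correlated over colon libraries at r = 0.84 (p = 0.0041, adjusted p = 0.0364; rho = 0.53, p = 0.0342, adjusted p = 0.148), which fell to 0.37 without the 2 libraries farthest from the median score.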

How the results depend on the processing

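The count of heat shock chaperone genes called in D3M relative to ND ileum was 0. It was 1 with upper quartile scaling, with the filter at 1 CPM in 6 libraries and with the newer quasi-likelihood method, 2 with DESeq2, without a flow cell term and with the smooth muscle covariate, and 3 with voom. With 1 library left out it ran from 0 to 3. The count in D3M relative to D1M ileum was 1, *Hsph1*, where 2.22% of genes tested were called. This count follows from the choice of the set on *Hsph1* in the same contrast, so it carries no test. It was 4 with DESeq2, 3 with voom and with only the 2 groups compared, and 0 without the flow cell term and without flow cell 2. With 1 library left out it ran from 0 to 4: it was 0 without ND rat K4038, without D1M rat K3978, K3987, K3988, K3989 or K3990, and without D3M rat K3961, K3977, K3980 or P762, 2 without D3M rat K3959 and 4 without ND rat K4048. The *Hsph1* value in that comparison ran from -0.68 to -0.49, which the choice of the set on this value makes no sign of stability. In D1M relative to ND ileum and in the 3 colon comparisons the count was 0 in every alternative, and between colon and ileum it ran from 6 to 8.

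Over all genes, D3M relative to ND ileum gave 1632 calls, 185 with only the 2 groups compared and 3007 without the flow cell term, and 675 to 2437 with 1 library left out. D3M relative to D1M ileum gave 289, 130 without flow cell 2 and 989 with DESeq2, and 6 to 761 with 1 library left out. The 9 other chaperone genes called lower in D3M relative to ND ileum became 0 with only the 2 groups compared, 14 with voom, and 0 to 19 with 1 library left out. The replicate block (the rat) changed the call of *Hspd1* (0.13, FDR = 0.0636) and *Dnajb1* (-0.26, FDR = 0.0236) between the tissues and of no other of the 9 genes. Outside D3M relative to D1M ileum, 20 values of these genes lay within 1 SE of 0, of which 15 changed sign under some alternative and 0 were called in any. In D3M relative to D1M ileum, the values of *Hspa8*, *Hspa4*, *Dnajb1* and *Hsf1* also changed sign under some alternative. The cause of these shifts was not tested. Each gene had 297 or more counts in every library, and the smallest SE between stages was 0.06 in log2.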

Other observations

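*Hsf4* was chosen after its values were seen. This factor of the same family as *Hsf1* reached a minimum of 1.33, a median of 1.70 and a maximum of 2.47 CPM in ND, of 1.58, 2.36 and 2.70 CPM in D1M and of 2.90, 3.43 and 3.68 CPM in D3M colon, so that all 6 D3M rats lay above the 12 others. The log2 fold change in D3M relative to ND colon was 0.88 (SE 0.21), at FDR = 0.235 in edgeR, and 0.953% of the genes tested in colon did not overlap between these groups. In ileum the same contrast gave 1.04 (SE 0.32, FDR = 0.0427).

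*Hspa8* related to the score of the 17 endoplasmic reticulum chaperone genes in both tissues, with r = 0.68 in ileum (p = 0.00505, adjusted p = 0.0364; rho = 0.69, p = 0.00462) and r = 0.66 in colon (p = 0.00485, adjusted p = 0.0364; rho = 0.68, p = 0.00406). Without the 2 farthest libraries r was 0.61 in ileum and 0.59 in colon, and with flow cell means taken out it was 0.62 in ileum and 0.44 in colon. *Hspd1* and *Hspe1* related to the same score in colon, at r = 0.71 (p = 0.00174, adjusted p = 0.0268; rho = 0.76, p = 0.001) and r = 0.66 (p = 0.00464, adjusted p = 0.0364; rho = 0.69, p = 0.00303).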
